A study of Danio rerio with 2 samples.

Results

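The claudins are the family described here, as messenger RNA in head tissue of zebrafish embryos. They were taken as every row of the deposited count table whose Ensembl symbol starts with cldn, with case ignored. The rule found 41 genes among 51544 features, of which 39 are claudins and 2 are the claudin-domain genes CLDND1 and cldnd1a. Embryos of the AB strain were collected at 33 hours post fertilisation, and the head was removed ahead of the otic vesicle, from which the inner ear forms. The wildtype group served as the control and carried no mutation named in the labels. The other group was rbm24a-/-, with an 8 bp deletion made by TALEN nucleases in exon 1 of rbm24a, an RNA-binding protein studied for its part in the lens. Each group had 1 library, with 14148577 assigned reads for wildtype and 16667612 for mutant heads. No difference therefore has a replicate check, and each interval (95%, exact) covers the error of counting alone. Pairs of values below give the wildtype library first and the mutant library after it. PCR reads are not independent molecules, so even that error may be larger than the intervals show.

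Claudins are membrane proteins with 4 membrane-spanning segments. Their outer loops meet those of the neighbouring cell and close the gap between cells at the tight junction. In mammals some claudins seal this path, among them claudins 1, 3, 5, 11 and 18, while others such as claudins 2, 10 and 15 form channels for ions or water. In the head they are known from the outer skin, from blood vessels, where claudin 5 seals the blood-brain barrier, and from the neuroepithelium. In zebrafish cldn5a is known to be needed for the barrier of the brain ventricles.

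The targeted gene and the tissue were looked at first. For rbm24a, 224 and 121 reads were assigned. In CPM, reads relative to the sum of a library, that was 2.18-fold lower in mutant heads (interval 1.74 to 2.74). A small deletion can leave a transcript in place, so this level says little about the protein. Markers of head tissue were present in both libraries. The neuroepithelium list summed to 2577 and 2470.2 CPM, the epidermis and periderm list to 15159 and 16500.3 CPM. Lens markers summed to 955 and 113 CPM and red blood cell markers to 1086 and 193 CPM, so these lists held a smaller share of the mutant library. In a piece of tissue, fewer cells of a type and less RNA per cell cannot be told apart. The part of these tissues in the claudin values was not tested.

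Of the 41 genes, 21 were expressed in the head, with a mean of at least 1 CPM over both libraries. These are called measured below, and the measured claudins include both claudin-domain genes. A further 16 had reads but stayed under 1 CPM, with at most 16 reads in a library. The remaining 4, cldn15la, cldn15lb, cldn10l2 and cldn23l, had 0 reads in both libraries, which allows levels up to 0.212 and 0.180 CPM (3 counts per library). Summed over the family, claudins had 13382 and 15214 reads, or 946 and 913 CPM. The mutant-to-wildtype ratio of the sum was 0.97 (interval 0.94 to 0.99).

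A few genes held most of these reads. The 5 highest claudins took 69.3% and 69.0% of claudin reads. cldn5a alone held 32.8% of them in wildtype and 17.6% in mutant heads. cldni moved the other way, from 18.7% to 28.3%, so the most abundant claudin by reads was cldn5a in one library and cldni in the other. cldn3c held 6.36% and 7.86%, and CLDN12 5.45% and 3.92%.

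**Figure D1:**
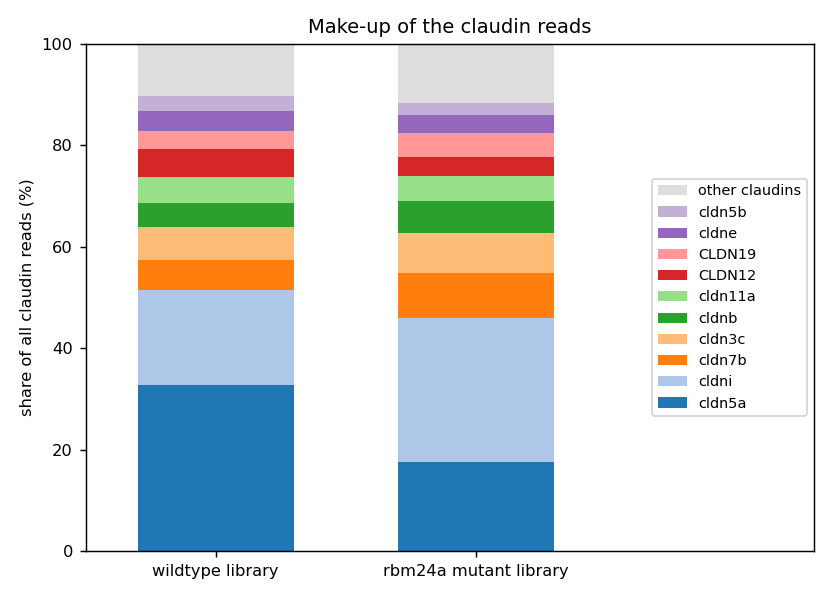
Stacked bars give each claudin's share of all claudin reads (percent) in the wildtype and the mutant library, with the 10 highest claudins by mean CPM in colour and all others in grey. The cldn5a share is 32.8% in the left bar and 17.6% in the right one, and the cldni share 18.7% and 28.3%.

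Between the libraries, 1 of the 21 measured claudins was higher in the mutant library by at least 2-fold, none was lower by that much, and 20 lay within 2-fold. A gene was called past 2-fold where log2((mutant CPM + 1)/(wildtype CPM + 1)) reached 1 or -1. This is 4.76% of the measured claudins, against 5.05% of 18094 features over the whole table, with 2.22% higher and 2.82% lower. The share is near the background, so it is no result about the family. No p-value is given for these counts or for a single gene, since each group is a single library. The median log2 ratio of the measured claudins was -0.10, beside 0.00 over annotated genes, with 10 claudins above 0 and 11 below. The 11 below include both claudin-domain genes, with log2 ratios of -0.22 and -0.20. Without them more claudins lay above 0 than below, and the middle ratio was 0.15, that of cldn23.1. By 1.5-fold, 4 claudins (19.0%) passed, against 14.8% of all features. They were cldn1, which was higher as were 6.95% of features, and cldn5a, cldnf and cldn11b, which were lower as were 7.88% of features.

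**Figure D2:**
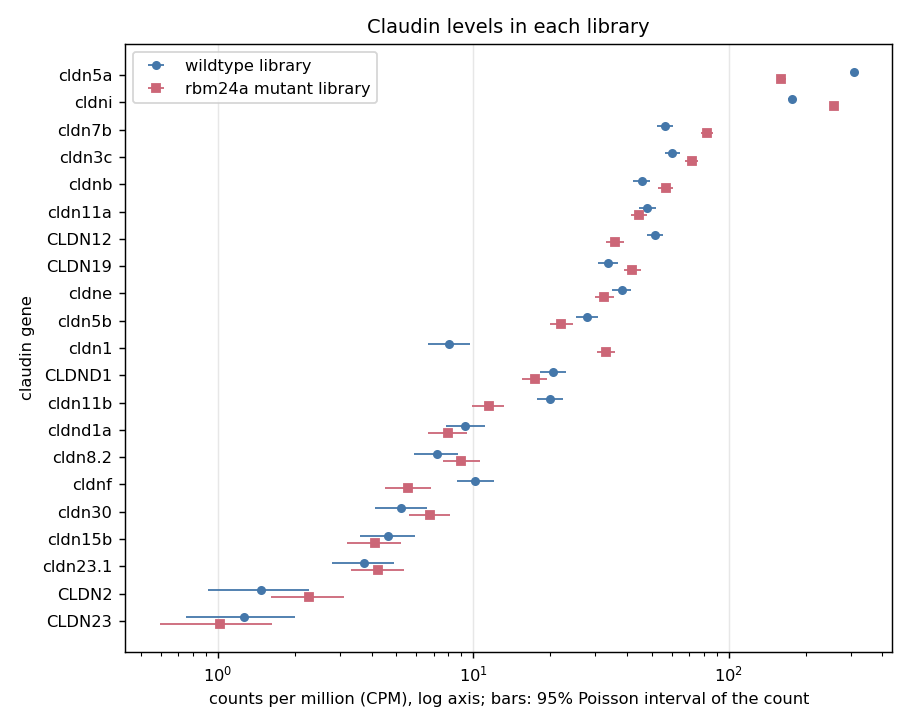
Points give the level of each of the 21 measured claudins in CPM (log axis) in the wildtype library (circles) and the mutant library (squares), and bars are 95% Poisson intervals of the count. cldn5a in the wildtype library is highest at 310.2 CPM, CLDN23 is lowest in both, and cldn1 shows the widest gap between the libraries, 8.06 against 33.1 CPM.

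Of the claudin 5 copies, cldn5a had the most reads in both libraries among claudins named after barrier-forming mammalian ones. cldn5b had fewer reads than cldn3c and cldn11a. These are reads not divided by length, and by RPKM cldn3c and cldn11a stood above cldn5a in both libraries. The table gives both claudin 5 copies the symbol CLDN5. ENSDARG00000014059 has a listed length of 1647 bp, the same as cldn5b in the RefSeq table of assembly GRCz12tu, and shares 8 neighbouring genes with it and 0 with cldn5a. ENSDARG00000043716 shares 7 neighbours with cldn5a, srrd among them, and 0 with cldn5b. The genes are called cldn5a and cldn5b on that basis.

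cldn5a had 4389 and 2674 reads. The levels were 310.2 and 160.4 CPM, 1.93-fold lower in the mutant (interval 1.84 to 2.03), with a log2 ratio of -0.95. This is just inside the 2-fold limit, and 3.17% of all features had a ratio as low or lower. cldn5b, the copy known in zebrafish from blood vessels, had 396 and 368 reads. Its levels of 28.0 and 22.1 CPM gave a mutant-to-wildtype ratio of 0.79 (interval 0.68 to 0.91). Together the copies held 338 and 183 CPM, 1.85-fold lower (interval 1.77 to 1.94). Without cldn5a, the rest of the family summed to 636 and 752 CPM, a mutant-to-wildtype ratio of 1.18 (interval 1.15 to 1.22). The near-equal family totals therefore held a lower cldn5a and a higher sum of the rest. The rest did not move as one. Of the 21 measured claudins, 10 lay above 0 and 11, cldn5a and both claudin-domain genes among them, below. cldni alone went from 177 to 259 CPM.

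Marker lists of the tissues that use claudin 5 had medians from 0.02 to 0.21. In the endothelium list, 16 of 21 measured members lay above 0 and 5 below, none passed 2-fold, and the median log2 ratio was 0.21. Its summed level was 293 and 328 CPM, and no member was at 0 in both libraries. FLI1 (a transcription factor of vessels) had 47.1 and 49.7 CPM, and cdh5, the cadherin of vessel junctions, 39.7 and 55.8 CPM. The list of blood-brain barrier endothelium had a median of 0.02 over 12 measured members, none past 2-fold, and sums of 403 and 390.5 CPM. Its highest members were RECK, a membrane protein of Wnt7 signalling, at 128 and 134 CPM, and SLC7A5, an amino acid transporter, at 107 and 91.7 CPM. The sums of this list were above those of the endothelium list in both libraries. Whether its reads came from vessel cells was not tested, so its median is no measure of barrier vessels alone. In the neuroepithelium list, 9 of 15 members lay above 0 and none passed 2-fold (median 0.08). The member with the highest mean level, a FABP7 fatty-acid-binding protein gene, had 569.6 and 409 CPM, and the neural transcription factor SOX3 had 387 and 368 CPM. The other FABP7 gene of the list went the other way, with 9.68 and 20.1 CPM (ratio 2.08, interval 1.70 to 2.55). Its log2 ratio on the scale used for calls was 0.98, just within 2-fold. Neither the number of vessel cells nor that of ventricle cells was measured, and their part in the cldn5a and cldn5b values was not tested.

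The genes named after other barrier-forming claudins of mammals held the 1 gene past 2-fold. cldn1, whose mouse counterpart is needed for the water barrier of the skin, had 114 and 551 reads. The levels were 8.06 and 33.1 CPM, 4.10-fold higher in the mutant (interval 3.35 to 5.06), with a log2 ratio of 1.91. Of all 18094 features, 0.453% had a ratio as high or higher. By CPM, cldn1 had rank 15 among claudins of the wildtype and rank 9 among those of the mutant.

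cldn3c, related to the sealing claudin 3, had 851 and 1196 reads. Its levels of 60.1 and 71.8 CPM gave a wildtype-to-mutant ratio of 0.84 (interval 0.77 to 0.92), with a log2 ratio of mutant to wildtype of 0.25. The 2 rows with the symbol CLDN11, known in mammals from myelin and the testis, were told apart by their listed lengths and neighbouring genes. The 3748 bp row (cldn11a, 3747 bp in RefSeq) had 48.1 and 44.7 CPM, a difference within its counting interval (ratio 0.93, interval 0.84 to 1.03). The 8778 bp row (cldn11b, 8832 bp in RefSeq) had 282 and 191 reads. That was 19.9 and 11.5 CPM, a mutant-to-wildtype ratio of 0.57 (interval 0.48 to 0.69). In the list of oligodendrocyte and Schwann cell markers the median log2 ratio was -0.23 over 6 measured members, 4 of them below 0 and none past 2-fold. Its member mbpb, a gene of myelin basic protein, had 21.0 and 34.7 CPM. The part of these cells in the cldn11b value was not tested. cldn3d and cldn18 stayed under 1 CPM, with at most 3 reads in a library.

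**Figure D3:**
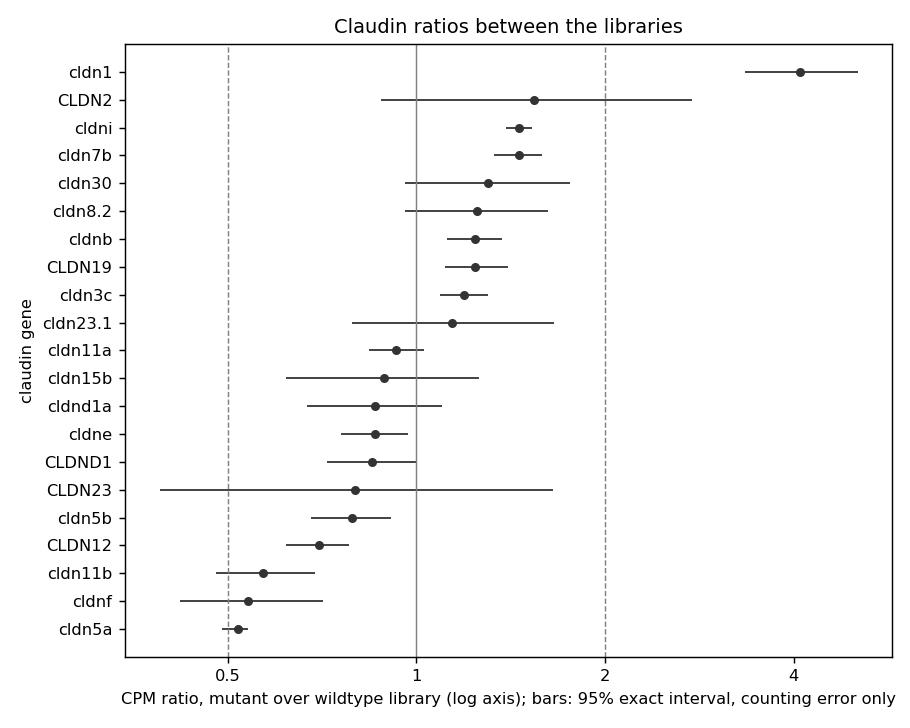
Points give the CPM ratio of the mutant over the wildtype library for the 21 measured claudins (log axis), bars are 95% exact intervals of counting error, and dashed lines mark 2-fold. cldn1 stands at 4.10, every other claudin lies between 0.52 for cldn5a and 1.54 for CLDN2, and the CLDN2 interval (0.88 to 2.75) spans 1.

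The claudins with letter names, which zebrafish has beside the counterparts of mammalian claudins, included cldni, which had rank 2 by CPM in the wildtype and rank 1 in the mutant, and rank 1 by RPKM in both. Of 13 genes with such letters or fish numbers, 5 were measured, none past 2-fold, and their median log2 ratio was 0.30. Summed reads gave 280.2 and 362 CPM, a mutant-to-wildtype ratio of 1.29 (interval 1.24 to 1.35). cldni had 2507 and 4311 reads. Its 177 and 259 CPM gave a ratio of 1.46 (interval 1.39 to 1.53). cldnb, known from the migrating lateral line primordium and other epithelia, had 646 and 943 reads. Its 45.7 and 56.6 CPM gave a ratio of 1.24 (interval 1.12 to 1.37). For cldn30 the levels were 5.23 and 6.78 CPM, with an interval that spans 1 (0.96 to 1.76).

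The other 2 measured members of this group were lower in CPM in the mutant library. cldne had 540 and 544 reads, or 38.2 and 32.6 CPM, which is 1.17-fold lower (interval 1.04 to 1.32). cldnf, in the table the row next to cldne, had 145 and 93 reads, in CPM 1.84-fold lower (interval 1.41 to 2.41). cldna and cldn29 lay just under 1 CPM, with means of 0.955 and 0.920 CPM. cldnk, a gene of myelinating glia in zebrafish, had 11 and 2 reads, a difference with a wide interval (1.41 to 60.16-fold lower).

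Among genes named after the remaining mammalian claudins, cldn7b and CLDN19 were higher in CPM in the mutant library and CLDN12 lower, all within 2-fold. cldn7b, a claudin of simple and layered epithelia, had 799 and 1370 reads. Its 56.5 and 82.2 CPM gave a ratio of 1.46 (interval 1.33 to 1.59), the same as for cldni. CLDN19, known in mammals from the kidney, the retinal pigment epithelium and Schwann cells, had 33.8 and 42.0 CPM (ratio 1.24, interval 1.11 to 1.40). CLDN12 had 729 and 597 reads, or 51.5 and 35.8 CPM, 1.44-fold lower in the mutant (interval 1.29 to 1.61). cldn8.2 and cldn23.1 had log2 ratios of 0.28 and 0.15, with counting intervals that span no change. CLDN23, at 18 and 17 reads, was the lowest measured member, and cldn7a had 6 and 3 reads.

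Some of the claudins that were higher in the mutant library can be set beside the markers of skin. Of 21 measured genes of epidermis and periderm, the outer skin layer of the embryo, 14 lay above 0 and 7 below, with a median log2 ratio of 0.19. Of these 21, 1 was higher by at least 2-fold and 0 were lower, against 2.22% and 2.82% of all features, so the count is no result about skin. The member past 2-fold was an ANXA1 annexin gene (ENSDARG00000026726), at 91.6 and 215 CPM (a wildtype-to-mutant ratio of 0.43, interval 0.40 to 0.45). The keratin krt4 had 10187 and 11010.0 CPM, and cyt1l, also a keratin gene, 1240.0 and 1546 CPM. None of the list was at 0 in both libraries. The cldn1 ratio of 4.10 was larger than the ratio of any skin marker measured, and the ratios of cldni and cldn7b lay inside their range. Of the 21 measured claudins, 11 lay below 0, among them cldne (ratio 0.86), cldnf (ratio 0.54) and both claudin-domain genes. Which claudins the skin expresses was not measured. The part of skin tissue in these claudin values was not tested.

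The claudins named after channel-forming mammalian claudins that were counted had few reads in the head. Of 9 such genes, 2 were measured, and the group summed to 6.43 and 6.60 CPM (ratio 1.03, interval 0.77 to 1.37). cldn15a, by its name also of this group, was not analysed, and genes without a symbol could not be searched. cldn15b had 66 and 69 reads, or 4.66 and 4.14 CPM. CLDN2 had 21 and 38 reads, or 1.48 and 2.28 CPM. Neither pair of levels differed beyond its counting interval. All 5 genes of the claudin 10 group had at most 2 reads in either library. The 2 claudin-domain genes, more distant relatives, had 20.5 and 17.4 CPM (CLDND1, 290 reads in both libraries) and 9.33 and 7.98 CPM (cldnd1a).

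Several claudins lie side by side in the table, whose row order follows the chromosomes: of 16437 pairs of neighbouring genes with a unique RefSeq symbol, 98.9% were on one chromosome. Within 10 rows of each other stood 18 members in 7 runs. Neighbours in a run differed widely in level. In the run of cldnj, cldne, cldnf and cldna, cldne had 38.2 and cldnj 0.0707 CPM among wildtype reads. In the run of cldn3c, cldn3d and cldn29 the wildtype levels ranged from 60.1 CPM for cldn3c to 0.212 CPM for cldn3d. In the run of cldnb, cldnd and cldn30, cldnb had 45.7 CPM and cldnd 0.353 CPM. In these 3 runs the same gene was highest in the mutant library, at 32.6, 71.8 and 56.6 CPM. Claudins of a run may resemble each other in sequence, and how the counting treated reads that match several copies is not given in the sources used here.

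Levels of different claudins can be compared only per length, and here the deposited lengths change the order. RPKM, which divide reads by gene length and library total, put cldni first at 49.04 and 71.59. cldn11a followed in the wildtype library at 36.57 and cldn3c at 29.81, and in the mutant library these were 33.96 and 35.56. cldnb came next at 25.27 and 31.31. cldn5a, first by reads in the wildtype library, was rank 7 by RPKM with 15.12 there, close to cldn5b at 16.99 and cldn7b at 15.06, and rank 10 in the mutant library with 7.82.

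The rank of cldn5a can be set beside the length used. Its CPM over its RPKM gives 20.5 kb, longer than the 5431 bp the table lists for the gene and than the 1507 bp of cldn5a in RefSeq. Of 19 claudins with at least 50 mutant reads, cldnf was the other one with an RPKM length beyond the listed length by more than 2% (5.99 kb against 2859 bp). Among 11433 annotated genes with at least 100 mutant reads, 2.99% had an RPKM length beyond the listed one by more than 2%. Per kilobase of the RefSeq gene, cldn5a would stand at 206 and 106 CPM, and cldn5b at 17.0 and 13.4 CPM. The place of cldn5a among the claudins thus depends on the length used. Whether reads of cldn5a and cldnf were counted over regions longer than the listed genes was not tested. Nor was the part that this has in their ratios between the libraries.

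**Figure D4:**
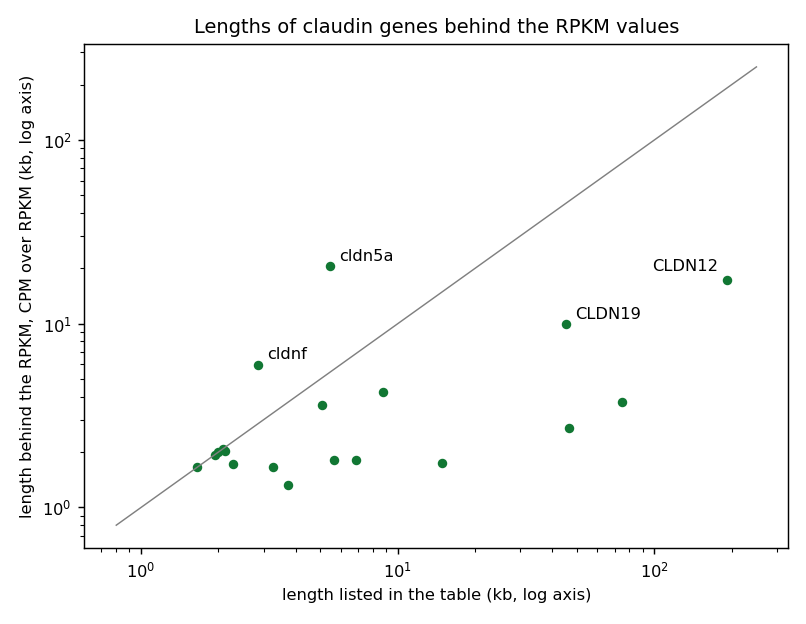
Each point is a claudin with at least 50 mutant reads, with the length listed in the table (kb, log axis) against the length behind its RPKM value, CPM over RPKM (kb, log axis), and the line marks equal lengths. cldn5a (20.5 kb) and cldnf (5.99 kb) lie above the line, and no other claudin lies above it by more than 2%.

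Genes listed as partners of claudins at the junction were compared last. Of 66 measured partner genes, 2 (3.03%) were lower in the mutant library by at least 2-fold, against 2.82% of all features. The number higher by that much was 0, against 2.22% of all features. The median log2 ratio of the partners was 0.10, with 44 genes above 0 and 22 below. Among scaffold and cytoplasmic proteins, 10 of 19 lay above 0 (median 0.02). The highest were YBX1 at 2686 and 2604 CPM, a TJP1 gene at 158 and 151 CPM and a MAGI1 gene at 141 and 116 CPM. YBX1 is a general Y-box RNA-binding protein and no scaffold of the junction. It held most of the list's summed 3597 and 3485 CPM. TJP1 and MAGI1 encode scaffolds that bind claudins or their partners from inside the cell. Among the other membrane proteins of the tight junction, 16 of 21 lay above 0 (median 0.19). A JAM3 junctional adhesion gene had 289.9 and 233 CPM, crb2a, an apical polarity protein, 697 and 834 reads, and f11r.1, another junctional adhesion gene, 38.4 and 47.3 CPM.

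The 2 partners past 2-fold belonged to the polarity and adherens junction lists. pard3bb, of the Par3 polarity family, had 532 and 287 reads, 2.18-fold lower (interval 1.89 to 2.53). A NECTIN1 gene (ENSDARG00000069767), an adhesion protein of adherens junctions, had 41 and 10 reads, 4.83-fold lower (interval 2.38 to 10.81). Neither passed 2-fold with a pseudocount of 5 CPM or in the deposited RPKM. The other NECTIN1 gene had 191 and 182 reads. In the polarity list 7 of 10 genes lay above 0 (median 0.13), with lin7c at 139 and 136 CPM and PRKCI, an atypical protein kinase C, at 88.5 and 89.8 CPM. In the adherens junction list 11 of 16 lay above 0 (median 0.12), with CTNNB1, beta-catenin, at 836 and 918 CPM, CDH2, the neural cadherin, at 276 and 233 CPM, and ctnnb2 at 197 and 238 CPM.

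**Figure D5:**
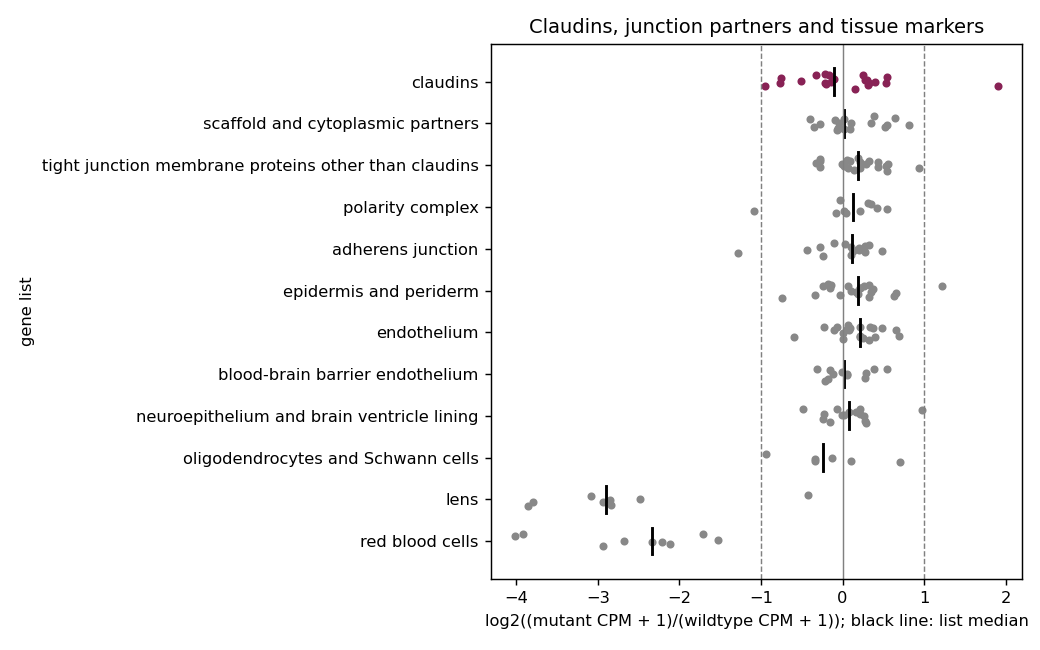
Each point is a measured gene, placed by log2((mutant CPM + 1)/(wildtype CPM + 1)), for the claudins (dark) and for lists of junction partners and tissue markers (grey), with list medians as black lines and 2-fold as dashed lines. The claudin median, with both claudin-domain genes counted, is -0.10. The partner lists have medians of 0.02 to 0.19, while the lens and red blood cell medians are -2.89 and -2.33.

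The marker lists of further tissues had medians from -0.08 to 0.22. For ionocytes, salt-transporting skin cells, the median was 0.18 over 5 measured genes, with sums of 188 and 211 CPM. These 5 were ATP1B1 and ATP6V1A genes and ca2. The other ionocyte rows stayed under 1 CPM, among them foxi3a with 9 and 12 reads and foxi3b with 8 and 11. Whether the reads of this list came from ionocytes was not tested. For the otic vesicle, which by the stated cut lies outside the sample, the median was 0.19 over 12 genes. Otolith genes had reads all the same, stm 269 and 131 and oc90 84 and 215. stm was lower (19.0 and 7.86 CPM) and oc90 higher (5.94 and 12.9 CPM) by 2-fold. Each was 1 of the 12 measured genes, against 2.82% of all features lower and 2.22% higher by that much. These calls were lost with a pseudocount of 5 CPM and in the deposited RPKM. Whether otic tissue was in the sample was not tested. For the olfactory placode the median was -0.08 over 6 genes, and for pharyngeal endoderm 0.22 over 3. In the lens list 7 of 8 genes were lower by at least 2-fold, and in the red blood cell list 9 of 9, against 2.82% of all features. Of the 37 genes in the authors' deposited table of differences, 0 are claudins. The lowest wildtype FPKM in the authors' deposited table is 21.62.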

How the data were processed

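Messenger RNA libraries came from the TruSeq RNA kit, read as 100 bp pairs, per the labels' protocols. The submitters' processing notes name bcl2fastq (2.17.1.14), HISAT2 (2.0.1), HTSeq (0.6.1), cutadapt, DESeq2 and the build GRCz11, without their roles. For the strand setting, the annotation and reads that match several genes, the answer is not given in the sources used here, so reads of overlapping, antisense and near-identical genes cannot be told apart. Whether a library pools the independent samples that the protocol mentions is also not stated.

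The deposited table gives read counts, not normalised, for 51544 features, of which 19973 are not tied to an annotated gene. The RPKM values in it were made by the authors with their own gene lengths. From the authors' deposited table of differences, only its gene list and its lowest FPKM were used. Columns of other samples numbered 0.

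Counts were scaled to CPM by the column sum. Ratios carry Clopper-Pearson intervals from the counts of both libraries (Python 3.11.15, scipy 1.17.1), and levels in figures Poisson intervals. A count of 0 was bounded by 3 counts per library. The scale with a pseudocount of 1 CPM understates differences of low genes, so folds of single genes are ratios without it. A few list members within 2-fold on that scale have a ratio beyond 2-fold without it. Symbols came from a table of gene names, in capitals where it gives the mammalian name. Of 31571 annotated genes, 5424 had no symbol and could not be searched, 774 of them with at least 1 CPM. Of 42 claudin symbols, 41 had a row, and cldn15a was not analysed here. The planned levels per coding length needed protein lengths, so RPKM and RefSeq gene lengths stand in for them. Of 226 list symbols, 153 matched by symbol, 53 without a final a or b, and 20 not at all. The members, the lists and the grouping of claudins by name were chosen with earlier results of these data known. Named claudins are both cldn5 copies, those past 2-fold, the 10 highest by mean, the 5 nearest to 2-fold among the rest and the 5 nearest to 1 CPM on each side. In partner lists they are members past 2-fold and the 3 highest, in marker lists members past 2-fold and the 2 highest. Other named claudins, crb3b, the other FABP7 gene and the other NECTIN1 gene were named after their values were seen. Lens and red blood cell members are given as sums and counts only, and 1 marker gene that the rule names is not reported here. Steps were tested on simulated counts. Alternatives were other pseudocounts, filters, folds and scalings (TMM factors from edgeR 4.0.16, size factors as in DESeq2) and the deposited RPKM.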

Additional observations from a re-analysis of the deposited data

How the results depend on the processing

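No paired analysis was possible because there is a single library in each group, which also leaves no replicate to leave out. All 23 named claudins kept the sign of their log2 ratio under the alternative pseudocounts, scalings and RPKM, which is no independent check of direction. A pseudocount cannot reverse a sign, the RPKM come from the same counts, and the scalings moved ratios little. cldn1 ranged from 1.54 to 2.02, staying past 2-fold, and cldn5a from -0.95 to -0.87. TMM and size factors shifted all ratios by 0.01 and 0.03. The number of claudins lower in the mutant library was 0, and 3 at 1.5-fold. The summed claudin level was -0.05 in log2, and 0.19 with deposited RPKM, where the long length behind cldn5a gives it less weight. Partners higher in the mutant library numbered 0 of 66, but 1 with a pseudocount of 0.1 and 3 at 1.5-fold. The shares of all features moved too. With a pseudocount of 0.1, 8.30% lay past 2-fold in either direction, and 6.95% were higher at 1.5-fold. Partners lower numbered 2, but 0 with a pseudocount of 5, 1 with a mean of at least 5 CPM, 0 with deposited RPKM and 0 at 3-fold, and the cause was not tested. In the neuroepithelium list 1 gene instead of 0 was higher with a pseudocount of 0.1, with size factors and in RPKM. Depth limits the 20 claudins under 1 CPM.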

Other observations

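The table rows beside cldn1 also had more reads in the mutant library. They were looked up after the cldn1 value was seen and belong to no annotated gene. The row after it, Novel7447 (2051 bp), had 93 and 311 reads, a mutant-to-wildtype ratio of 2.84 (interval 2.24 to 3.62). The row before it, Novel7446, had 253 and 437 reads (ratio 1.47, interval 1.25 to 1.72), and the row before that, Novel7445, 3 and 50 reads (ratio 14.15, interval 4.57 to 70.91). The nearest annotated gene on one side, znfl2a, had 157 and 197 reads (ratio 1.07), and the nearest on the other side 60 and 80 reads (ratio 1.13). Whether the unannotated rows hold reads of cldn1 transcripts was not tested.

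The row before cldn5a, srrd, had 147 and 76 reads (ratio 0.44, interval 0.33 to 0.58), and UFD1, 2 rows after it, 691 and 840 reads. The heat shock gene hsp70l, 3 rows after cldn5a, had 173 and 10 reads (ratio 0.05, interval 0.02 to 0.09), and PPTC7, 2 rows before it, 128 and 137 reads. The other rows within 3 places of cldn5a, MYL2 and U1, had 0 reads. The row 2 places after cldn5b holds CRYBA4, a lens crystallin gene, with 3053 and 427 reads, while cldn5b itself had 396 and 368 reads. The part of neighbouring genes in the claudin 5 values was not tested.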
